A study of Mus musculus with 12 samples.

Results

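The genes described here code for histone variants that are made outside the replication-dependent clusters: the core histone variants H2afx, H2afy, H2afz, H2afv, H3f3a and H3f3b, and the linker histones H1f0, H1fx and H1foo. The 9 genes were taken by name from 4 deposited comparison tables of mouse primordial germ cells, the embryonic precursors of eggs and sperm. All 9 have a row among the 22552 rows of each of 3 stage tables, and 8 have a row among the 16394 rows of a knockout table, where H2afy is not listed and so was not analysed.

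Messenger RNA was profiled in 12 libraries of germ cells from C57BL/6 embryos. The Tet1-KO cells (genotype Tet1 -/-, embryonic day 13.5, 2 libraries) lack the enzyme TET1, which oxidises 5-methylcytosine in DNA, and were set against wild-type cells of the same day (WT, 3 libraries, no sex in the labels). Wild-type stages comprised E9.5 with 2 libraries, E11.5 with 2 libraries and a set labelled E13.5m with 3 libraries. The stage tables carry a further group, E13.5f, that no library title carries and that is used as the tables name it. Its values followed those of WT closely (r = 0.999 on the log2 scale across 10996 genes), so both may come from the same libraries. RNA came from 500 to 2000 cells for Tet1-KO and WT and from 400 to 5000 cells for E9.5, E11.5 and E13.5m, per the labels' protocols. Each library is thus a pool of cells, and no label says whether separate embryos gave the libraries of a group. The labels give neither the way the cells were isolated nor how the Tet1 allele was made.

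The deposited values are FPKM, a read density corrected for transcript length and library size. Levels of different genes can be compared only roughly, since base content and stretches shared with other genes also differ between them. The authors pooled the libraries of a group into 1 value, so no value per library and no spread of a level can be given, and the depth behind each value is not given in the sources used here. Each log2 ratio is given with an SE, the standard error implied by the authors' deposited test, and a gene is called where that test passed their adjusted threshold of 0.05. The pooled values do not show how far these tests reflect the spread between libraries of a gene, and that spread may be technical. For E13.5f the number of libraries behind the test is not known. The 3 stage tables were put on 1 common scale through E11.5, which all 3 hold.

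Canonical histones are made in S phase and packed behind the replication fork. Replacement variants such as H3.3 are made throughout the cell cycle and enter chromatin independently of replication. H3.3 marks active and turned-over chromatin, H2A.Z sits beside gene starts, H2A.X is phosphorylated at DNA breaks, and macroH2A is known from repressed chromatin such as the inactive X chromosome. Linker histones bind the DNA between nucleosomes and compact it; H1.0 is known from differentiated and resting cells, and the H1foo product from oocytes. Germ cells of these stages are known to lose DNA methylation and to reorganise their chromatin, and female germ cells enter meiosis from about the last stage sampled here.

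The cells carried germ cell transcripts in every group. Pou5f1 lay between 371 and 795 FPKM and Dppa3 between 1047 and 2823 FPKM over all the deposited columns. Later germ cell genes were low at E9.5: Dazl rose to 355 FPKM at E11.5, against 2.24 FPKM at E9.5, and Ddx4 to 176 FPKM at E11.5, against 10.3 FPKM at E9.5. Dazl rose again at E13.5m and E13.5f, and Kit and Tfap2c fell at E13.5m. In Tet1-KO 2 of the 10 germ cell markers were called, against 6.16 percent of all genes. Dazl was at 671 FPKM in Tet1-KO and 1491 FPKM in WT, and Tfap2c at 226 FPKM in Tet1-KO and 122 FPKM in WT. Tet1, the check of the knockout, was at 0.218 FPKM in Tet1-KO and 6.36 FPKM in WT, and was called. Blood markers were high at E9.5 alone: the 10 listed genes summed to 28.7 FPKM at E11.5, against 1998 FPKM at E9.5, where embryonic globins made up most of the sum. Of those genes 1 was listed at 0 in both groups. Their part in the E9.5 values below was not tested. In bulk samples, fewer cells of a type and less RNA per cell cannot be told apart.

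Most of the members were among the more abundant transcripts. H3f3b had the highest level of the members in every group, between 1053 and 1460 FPKM on the common scale of the wild-type stages. It ranked 33rd of 16394 rows in the WT column. H2afx, H2afy, H2afz and H3f3a lay between 214 and 625 FPKM, and their order differed between stages: H2afx was the highest of them at E9.5 and H2afy at E13.5f. H2afv lay between 119 and 158 FPKM. Below them came the linker histones, with H1f0 between 18.6 and 89.5 FPKM and H1fx between 1.63 and 13.5 FPKM. H1foo was listed at 0 in E9.5, E11.5, E13.5m and Tet1-KO, at 0.250 FPKM in E13.5f and at 0.215 FPKM in WT.

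**Figure D1:**
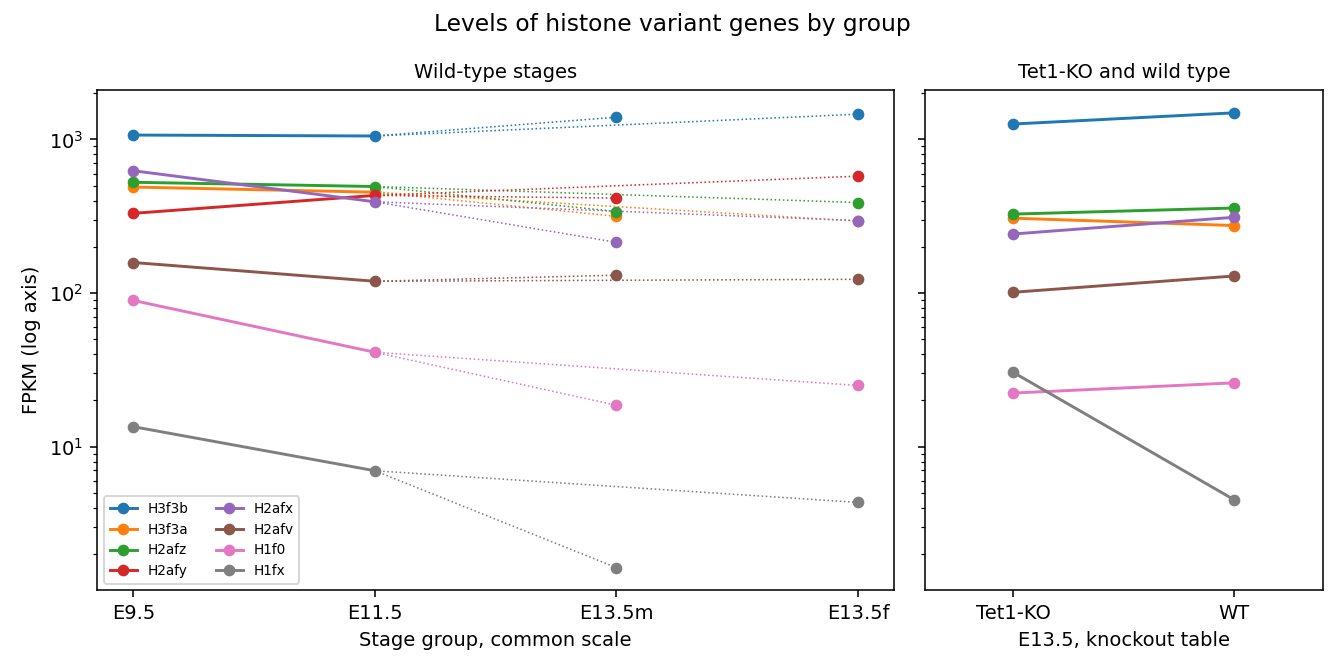
FPKM of 8 members (log axis) in the 4 wild-type stage groups on the common scale, left, and in Tet1-KO and WT, right; each point is the authors' pooled value of a group, and lines join groups that a table compares. H3f3b stays highest throughout, H1f0 and H1fx are lower at each later stage, and H1fx is at 30.5 FPKM in Tet1-KO and 4.50 FPKM in WT; H1foo, at or near 0, is not drawn.

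The member called in the knockout comparison was H1fx, which codes for the linker histone variant H1X. It stood at 30.5 FPKM in Tet1-KO and 4.50 FPKM in WT, a log2 ratio of 2.76 ± 0.60 (SE) or 6.78-fold, with an adjusted p of 0.000535 in the authors' deposited table of the Cuffdiff test. H1fx was the 1 call among 8 tested members (1 higher, 0 lower), where the table called 6.16 percent of all genes in either direction, 0.677 percent as higher and 5.48 percent as lower. The 8 include H1foo, at 0 FPKM in Tet1-KO and 0.215 FPKM in WT. Relative to the median of all genes, which was -0.38 in Tet1-KO over WT, H1fx again was the 1 member that passed the normal test, at 3.14 ± 0.60 (SE), where 3.61 percent of genes passed. Among the 111 genes called higher in Tet1-KO it ranked 3 by the size of change in log2(FPKM + 1), and the median log2 ratio of those genes was 1.35. The Tet1-KO level also lay above each wild-type stage, the nearest being 13.5 FPKM at E9.5 on the common scale, although these values come from tables normalised separately.

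H1fx is a gene of 1 exon on chromosome 6 (87930415 to 87931476, build mm9). The deposited table places the long non-coding RNA Gm5577 (87931677 to 87934174) only 200 bases away. In RefSeq on GRCm38.p6 they run away from each other, H1fx on the minus strand, again with 200 bases between them. The GENCODE M21 annotation extends both genes so that they overlap by 755 bases. The labels' protocols describe an amplification kit and no strand-marking step, so where the genes overlap reads of H1fx cannot be told apart from reads of Gm5577. The DNA upstream of every annotated H1fx start is shown because both transcripts begin around it, and beside it a stretch of equal length upstream of H1foo, the member listed at or near 0; 5′ to 3′ on each gene's own strand, RefSeq sequence of GRCm38.p6, with CpG, the dinucleotide that carries methylation, in capitals. The H1fx stretch is chr6:87981638-87981732, minus strand, and the H1foo stretch is chr6:115944836-115944930, plus strand.
H1fx: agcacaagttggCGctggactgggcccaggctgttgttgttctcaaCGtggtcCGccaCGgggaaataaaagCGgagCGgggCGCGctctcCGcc
H1foo: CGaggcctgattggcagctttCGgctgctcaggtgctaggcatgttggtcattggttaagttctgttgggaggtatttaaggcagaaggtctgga
The H1fx stretch holds 9 CpG in its 95 bases and the H1foo stretch 2. Its first 50 bases are also the first bases of Gm5577 on the other strand.

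Over the 250 bases upstream of the RefSeq starts, the promoter table held 8 of the 9 members. H1fx had 30 CpG, more than 94.1 percent of 32851 promoters, whose median is 6. H3f3a had 35, H2afy 29, H2afz 28, H1f0 24, and H2afv and H3f3b 19 each. H1foo had 4, more than 37.8 percent of promoters. So 7 of the 8 matched members had CpG-dense starts, and the oocyte linker gene did not. The letters TATAAA were found on either strand in the H3f3b promoter alone of the 8, against 12.4 percent of all promoters. CCAAT was found in 5 of the 8 (4 times each in H3f3b and H2afv, 2 times each in H2afz and H1foo, and 1 time in H3f3a), and 33.8 percent of all promoters held it. GGGCGG was also found in 5 of the 8 (4 times in H3f3a, 2 times in H2afy, and 1 time each in H2afz, H2afv and H1fx), and 32.7 percent of all promoters held it. These matches describe letters only.

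The values of Gm5577 and H1fx lay on opposite sides of 0. Gm5577 was at 5.42 FPKM in Tet1-KO and 11.9 FPKM in WT, a log2 ratio of -1.14 ± 0.60 (SE) that was not called (adjusted p = 0.250 in the authors' deposited table). Between stages Gm5577 rose to 11.5 FPKM at E13.5f, against 1.73 FPKM at E11.5, and was called with an adjusted p of 0.00687 in the deposited Cuffdiff table. H1fx stood at 4.34 FPKM at E13.5f, against 6.97 FPKM at E11.5, and was not called. None of the 4 other genes listed within 100000 bases of H1fx was called in Tet1-KO, where 6.16 percent of all genes were called. Rab7, a vesicle transport GTPase gene and the next on the other side of Gm5577, was at 84.1 FPKM in Tet1-KO and 89.9 FPKM in WT. 8430410A17Rik was at 155 FPKM in Tet1-KO and 216 FPKM in WT. Copg was at 59.4 FPKM in Tet1-KO and 83.5 FPKM in WT. Among the genes listed in this window, H1fx alone had a higher value in Tet1-KO, while 67.6 percent of all tested genes had lower values there.

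**Figure D2:**
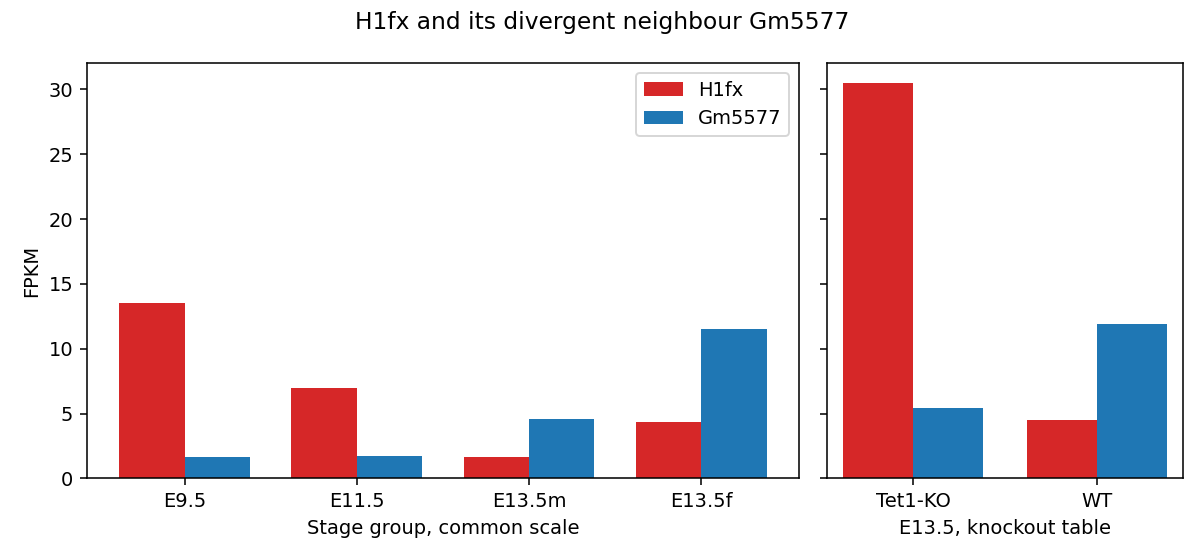
FPKM of H1fx (red) and of Gm5577 (blue), the non-coding RNA that starts 200 bases away on the other strand, in the stage groups (left, common scale) and in Tet1-KO and WT (right); each bar is the authors' pooled value with no spread. H1fx exceeds Gm5577 at E9.5, E11.5 and in Tet1-KO, and lies below it in E13.5m, E13.5f and WT.

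Several measures were set beside the H1fx rise. Its transcript is 71.3 percent G and C, above 99.98 percent of the genes that reached 1 FPKM in Tet1-KO and in WT. The 19 other genes within 5 points of that content had a median log2 ratio of 0.01 in Tet1-KO, against -0.38 over all genes. Among the 19 are the replication-dependent genes Hist1h2af, Hist1h2ah, Hist1h2ai, Hist1h2ak and Hist1h2an, and the median is the value of Hist1h2ak. With all such genes split into 5 groups of rising GC content, the medians were -0.33, -0.39, -0.36, -0.41 and -0.44. Called higher were 0.677 percent of all genes, and between 0.813 and 1.14 percent in each of the 5 GC groups, which hold genes that reached 1 FPKM. Of the 19 genes, 2 were called higher. Those are Rbmxl2, a testis RNA-binding protein gene, at 18.4 FPKM in Tet1-KO and 2.27 FPKM in WT, and Cebpb, a transcription factor gene, at 9.27 FPKM in Tet1-KO and 1.72 FPKM in WT. Rbmxl2 and Cebpb were named after their values were seen. The log2 ratio of Rbmxl2, 3.02, was above the 2.76 of H1fx. Taken relative to the median of those 19 genes, the H1fx change in log2(FPKM + 1) was 2.50. It was 2.90 relative to the median of all genes and 2.52 as deposited. The comparison with the 19 genes was chosen after seeing the data. The part of GC content in the rise was not tested. Y-linked Eif2s3y was at 0.0296 FPKM in Tet1-KO and 0.137 FPKM in WT, near 0 in both genotypes, against 271 FPKM in E13.5m. No coding stretch of 50 bases of H1fx, read on its own strand, recurs in a transcript of another GENCODE gene; the overlap with Gm5577 is on the opposite strand. Markers of gonadal soma summed to 18.2 FPKM in Tet1-KO and 15.0 FPKM in WT over the 9 genes that the table lists, and blood markers to 2.48 FPKM in Tet1-KO and 6.26 FPKM in WT over 5. Their part in the H1fx result was not tested.

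The other linker histone, H1f0 (chromosome 15, 78858642 to 78860930), was not called in Tet1-KO. It was at 22.3 FPKM in Tet1-KO and 26.0 FPKM in WT, a log2 ratio of -0.22 ± 0.37 (SE) with a 95 percent interval from -0.95 to 0.51, while that of H1fx ran from 1.58 to 3.94. H1fx therefore made up 57.7 percent of the FPKM sum of H1fx and H1f0 in Tet1-KO and 14.7 percent in WT. In the wild-type stages that share lay between 8.06 and 14.8 percent.

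Across wild-type development both linker histones had lower values at each later stage. H1f0 was at 89.5 FPKM at E9.5, 41.2 FPKM at E11.5, 18.6 FPKM at E13.5m and 25.02 FPKM at E13.5f on the common scale, so that the E9.5 level was 4.81 times that of E13.5m. H1fx was at 13.5 FPKM at E9.5, 6.97 FPKM at E11.5, 1.63 FPKM at E13.5m and 4.34 FPKM at E13.5f, with E9.5 at 8.27 times E13.5m. No single step passed the authors' threshold. For H1f0 the log2 ratio of E11.5 over E9.5 was -1.12 ± 0.46 (SE), with an adjusted p of 0.140 by the deposited Cuffdiff test, and that of E13.5m over E11.5 was -1.15 ± 0.50 (SE), with an adjusted p of 0.195. Taken relative to the median of all genes, which was 0.32 higher at E11.5, H1f0 fell at E11.5 by 1.44 ± 0.46 (SE) on the log2 scale against E9.5, with a Benjamini-Hochberg adjusted p of 0.0403 in the normal test over all genes with an SE. In that test 4.89 percent of genes passed. For H1fx the largest step was E13.5m over E11.5, a log2 ratio of -2.10 ± 1.09 (SE), not called. The deposited tables make no comparison of E9.5 with E13.5.

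Genes with the closest pattern over the 4 wild-type groups were found by the root mean square difference of mean-centred log2(FPKM + 1). For H1fx these were Trim8, 2210013O21Rik and Rps6ka6, at 0.03, 0.06 and 0.06. Unlike H1fx, they had similar values in both genotypes: Trim8 was at 1.59 FPKM in Tet1-KO and 1.57 FPKM in WT, 2210013O21Rik at 14.5 FPKM in Tet1-KO and 13.2 FPKM in WT, and Rps6ka6 at 4.61 FPKM in Tet1-KO and 5.18 FPKM in WT. For H1f0 they were Mobp, the replication-dependent histone gene Hist1h3d and Ttc7b, at 0.02, 0.06 and 0.06. For H2afx, Pcsk1 and Uggt1 were among the closest, at 0.05 and 0.06. The closest gene of each member was low. On the common scale Trim8 was at 5.55 FPKM at E9.5 and 0.223 FPKM at E13.5m. Mobp was at 4.57 FPKM at E9.5 and 0.157 FPKM at E13.5m, and Pcsk1 at 2.04 FPKM at E9.5 and 0.103 FPKM at E13.5m. With 1 FPKM added, the change of a low gene comes out too small, so likeness on this scale is not likeness in fold change. With 4 groups such likeness is a description.

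The 2 H3.3 genes, H3f3a (chromosome 1, 182732699 to 182743734) and H3f3b (chromosome 11, 115883275 to 115885818), are known to code for the same protein. Their coding sequences differ at 95 of 408 bases, and the longest exact stretch that their GENCODE transcripts share is 23 bases, so a longer exact match to the coding sequence belongs to 1 of the pair. The first 150 coding bases are shown to make this visible, 5′ to 3′, from GENCODE M21, with the bases that differ between the pair in capitals; 32 of them fall in this stretch.
H3f3a: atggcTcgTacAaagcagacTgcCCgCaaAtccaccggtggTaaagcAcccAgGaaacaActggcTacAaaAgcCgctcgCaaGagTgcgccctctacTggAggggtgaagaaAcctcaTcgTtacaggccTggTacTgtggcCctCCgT
H3f3b: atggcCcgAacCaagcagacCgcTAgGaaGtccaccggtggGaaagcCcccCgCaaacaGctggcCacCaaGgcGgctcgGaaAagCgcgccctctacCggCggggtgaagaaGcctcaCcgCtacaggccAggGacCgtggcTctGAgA
H3f3a also has 37 annotated pseudogenes with an exact coding stretch of 50 bases, against 2 for H3f3b, so the H3f3a level is the less certain of the pair.

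Against E11.5, the H3f3b value was higher and the H3f3a value lower in both E13.5 groups, with no call. H3f3b was at 1068 FPKM at E9.5, 1053 FPKM at E11.5, 1396 FPKM at E13.5m and 1460 FPKM at E13.5f on the common scale. H3f3a was at 489.9 FPKM at E9.5, 454 FPKM at E11.5, 316 FPKM at E13.5m and 294 FPKM at E13.5f. H3f3b thus gave 68.6 percent of the H3.3 sum at E9.5, 69.9 percent at E11.5, 81.5 percent at E13.5m and 83.2 percent at E13.5f. Their sum on the common scale was 1558 FPKM at E9.5, 1507 FPKM at E11.5, 1712 FPKM at E13.5m and 1755 FPKM at E13.5f. Neither gene was called at any step. The log2 ratio of E13.5f over E11.5 was 0.47 ± 0.42 (SE) for H3f3b and -0.62 ± 0.45 (SE) for H3f3a, and both E13.5 groups share the E11.5 libraries. In Tet1-KO H3f3b was at 1260 FPKM, against 1491 FPKM in WT, and H3f3a was at 307 FPKM, against 275 FPKM in WT. Neither was called there, with log2 ratios of -0.24 ± 0.13 (SE) for H3f3b and 0.16 ± 0.29 (SE) for H3f3a. The H3f3b share was 80.4 percent in Tet1-KO and 84.4 percent in WT.

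The H2A.Z genes H2afz (chromosome 3, 137527563 to 137529886) and H2afv (chromosome 11, 6327229 to 6344446) code for near-identical proteins and differ at 80 of 384 coding bases, with no shared stretch longer than 14. Their first 150 coding bases are given in the same way, with 34 differing bases in capitals, to show where this pair differs.
H2afz: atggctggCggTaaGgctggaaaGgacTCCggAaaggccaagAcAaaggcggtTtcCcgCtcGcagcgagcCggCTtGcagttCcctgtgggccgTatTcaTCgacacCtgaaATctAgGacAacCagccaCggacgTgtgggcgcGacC
H2afv: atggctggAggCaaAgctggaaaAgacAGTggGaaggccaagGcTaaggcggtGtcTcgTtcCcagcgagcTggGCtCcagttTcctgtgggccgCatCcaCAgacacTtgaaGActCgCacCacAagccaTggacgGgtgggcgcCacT

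H2afz was at 526 FPKM at E9.5, 494 FPKM at E11.5, 339.5 FPKM at E13.5m and 389 FPKM at E13.5f on the common scale. H2afv was at 158 FPKM at E9.5, 119 FPKM at E11.5, 131 FPKM at E13.5m and 123 FPKM at E13.5f. Neither was called in any comparison. H2afz gave between 72.2 and 80.5 percent of the H2A.Z sum over all 6 groups, a narrower range than that of the H3.3 pair. H2afz has 4 annotated pseudogenes with an exact coding stretch of 50 bases and H2afv 0, so the H2afz level is the less certain. In Tet1-KO H2afz was at 327 FPKM, against 358 FPKM in WT, and H2afv was at 101 FPKM, against 129 FPKM in WT. The 95 percent interval of the log2 ratio of Tet1-KO over WT ran from -0.70 to 0.44 for H2afz and from -0.96 to 0.26 for H2afv.

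**Figure D3:**
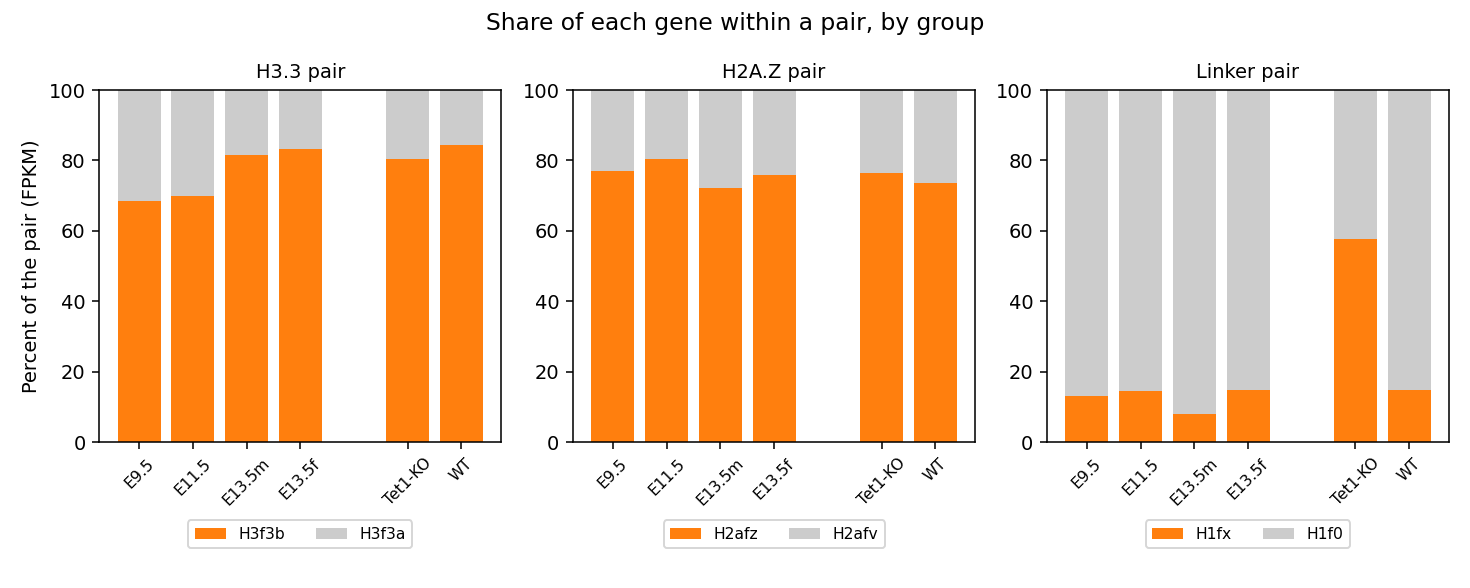
Percent of the FPKM sum of 3 gene pairs given by each gene in the stage groups and in Tet1-KO and WT; each bar is 1 deposited column, with no spread. H3f3b has a larger share at E13.5 than at E9.5 and E11.5, the H2A.Z pair keeps H2afz between 72.2 and 80.5 percent, and H1fx has 57.7 percent of the linker pair in Tet1-KO and 14.7 percent in WT.

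H2afx (chromosome 9, 44142798 to 44144156), whose product is phosphorylated around DNA breaks including the meiotic ones, was at 625 FPKM at E9.5, 393 FPKM at E11.5, 214 FPKM at E13.5m and 296 FPKM at E13.5f on the common scale. The value was lower at each later stage, and no step was called. The log2 ratio of E13.5m over E11.5 was -0.88 ± 0.42 (SE), with an adjusted p of 0.243 by the deposited Cuffdiff test, and that of E11.5 over E9.5 was -0.67 ± 0.42 (SE), with an adjusted p of 0.361. Relative to the median of all genes these were -0.89 and -0.99. In Tet1-KO H2afx was at 242 FPKM, against 311 FPKM in WT, a log2 ratio of -0.36 ± 0.29 (SE) that was not called. H2afx shares exact coding stretches of 50 bases with 18 further genes, most of them replication-dependent H2A genes, and with 3 pseudogenes, so its level is uncertain where the authors' counting could have divided such reads.

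H2afy (chromosome 13, 56174983 to 56236911), which codes for macroH2A1, was at 330 FPKM at E9.5, 432 FPKM at E11.5, 415 FPKM at E13.5m and 577 FPKM at E13.5f on the common scale. The log2 ratio of E11.5 over E9.5 was 0.39 ± 0.18 (SE), the adjusted p by the deposited Cuffdiff test was 0.188, and relative to the median of all genes it was 0.07. The authors' test failed to complete for H2afy in both E13.5 tables, so those levels carry no test. H2afy2, the macroH2A2 gene and not a member, fell to 4.33 FPKM at E11.5, against 26.4 FPKM at E9.5, a log2 ratio of -2.61 ± 0.65 (SE) with an adjusted p of 0.00339 in the authors' deposited Cuffdiff table. H2afy2 was then higher at E13.5m, with 12.5 FPKM against 3.86 FPKM at E11.5 (log2 ratio 1.70 ± 0.65, SE). At E13.5f it was at 8.38 FPKM, against 3.77 FPKM at E11.5, and neither rise was called. It stood at 9.96 FPKM in Tet1-KO and 9.41 FPKM in WT.

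In each stage comparison 0 members were called. Of the members with a completed test, 8 at E11.5 over E9.5, 7 at E13.5m over E11.5 and 7 at E13.5f over E11.5, the authors called none, where the tables called 5.63 percent, 4.88 percent and 12 percent of all genes. At an unadjusted p under 0.05 by the same Cuffdiff test the counts were 2, 2 and 0 members, where 19.8 percent, 17.2 percent and 26.5 percent of all genes passed. Lower values at the later stage were found for 7 of 8 members at E11.5 over E9.5, where 33.04 percent of all tested genes were lower. They were found for 5 of 7 at E13.5m over E11.5, where 47.0 percent of all were lower, and for 5 of 7 at E13.5f over E11.5, where 37.8 percent were lower. The median change of the tested members in log2(FPKM + 1) was -0.26, -0.54 and -0.41 for these comparisons, against medians of 0.29, 0.05 and 0.22 over all tested genes. The last pair of comparisons share the E11.5 libraries, and the members were chosen with results known, so no test of the list was made. Markers of other cells differed in the same comparisons. Gonadal soma markers summed to 29.3 FPKM at E13.5m, against 4.53 FPKM at E11.5, with 10 of 10 tested genes higher and Amh and Rspo1 called. At E13.5f they summed to 14.8 FPKM, against 4.42 FPKM at E11.5, with Irx3 called higher. Mesenchyme and epithelium markers summed to 58.1 FPKM at E13.5m, against 144 FPKM at E11.5, and to 225 FPKM at E13.5f, against 141 FPKM at E11.5. At E13.5m Sparc (30.4 FPKM, against 116 FPKM at E11.5) and Pax8 were called lower and Krt19 higher. At E13.5f Krt18 was called higher and Pax8 lower. The endothelium marker Esam was called higher at E11.5 (10.1 FPKM, against 0.141 FPKM at E9.5). It was called lower at E13.5m and at E13.5f than at E11.5. Y-linked genes were lower at E11.5 than at E9.5 in 4 of 4, with a sum of 58.1 FPKM at E11.5 and 133 FPKM at E9.5. Their part in the members' values was not tested.

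E13.5m and E13.5f were compared through the difference of their log2 ratios over E11.5, in a normal test that keeps the error of E11.5 in each ratio although the libraries are the same. No member passed the Benjamini-Hochberg adjustment over 10677 genes, of which 0.169 percent passed, and 0 of 7 tested members had an unadjusted p under 0.05, against 3.76 percent of genes. The largest difference was that of H1fx, with a log2 ratio of E13.5m over E13.5f of -1.41 ± 1.34 (SE), its level being 1.63 FPKM at E13.5m, against 4.34 FPKM at E13.5f. For H3f3b the difference was -0.06 ± 0.60 (SE), with a 95 percent interval from -1.25 to 1.12, so differences within that interval were not excluded. Across 10996 genes the E13.5f column followed the WT column of the knockout table with r = 0.999 on the log2 scale, genes not being independent. The median ratio of E13.5f over WT was 0.962. Whether these columns hold the same libraries is not stated, so values of E13.5f and WT cannot be counted as separate observations. E13.5m and E13.5f may also differ in library set.

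Genes that place, exchange or read these variants were also examined. None of 10 H3.3 deposition genes was called in any comparison, where between 4.88 and 12 percent of all genes were called. Daxx, which delivers H3.3 to heterochromatin with Atrx, was at 37.7 FPKM in Tet1-KO and 67.9 FPKM in WT, with an adjusted p of 0.0786 in the authors' deposited Cuffdiff table. Hira, of the complex that places H3.3 in active genes, was at 4.36 FPKM in Tet1-KO and 7.89 FPKM in WT, with an adjusted p of 0.258 there. Relative to the median of all genes, the adjusted p in the normal test was 0.485 for Daxx and 0.682 for Hira. Atrx was at 43.0 FPKM in Tet1-KO and 37.9 FPKM in WT, and Chd1, a remodeller, at 7.57 FPKM in Tet1-KO and 5.70 FPKM in WT. The other 8 genes of the list had lower values in Tet1-KO, as did 67.6 percent of all tested genes. Across the list the median change in Tet1-KO was -0.40 in log2(FPKM + 1), against -0.21 over all genes, whose calls ran mostly downward.

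Of 10 replication-coupled deposition genes 2 fell in Tet1-KO and 0 rose, where 5.48 percent of all genes were called lower and 0.677 percent higher. Asf1b, a chaperone of H3 and H4 in dividing cells, was at 151 FPKM in Tet1-KO and 411 FPKM in WT, a log2 ratio of -1.44 ± 0.34 (SE) with an adjusted p of 0.00153 in the deposited Cuffdiff table. Chaf1b, a subunit of the CAF-1 chaperone, was at 56.1 FPKM in Tet1-KO and 109 FPKM in WT. Relative to the median of all genes, Asf1b kept its call with an adjusted p of 0.0456 in the normal test and Chaf1b did not, with 0.374. In the same list Rbbp4, a histone-binding subunit of CAF-1 and other complexes, rose to 285 FPKM at E13.5f, against 115 FPKM at E11.5, with an adjusted p of 0.0163 in the authors' deposited table.

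Of 11 tested H2A.Z exchange genes 1 fell in Tet1-KO and 0 rose, a share near the 5.48 percent of all genes called lower. Ep400, an ATPase that exchanges H2A.Z, was at 13.4 FPKM in Tet1-KO and 25.3 FPKM in WT, and the call was lost relative to the median, where the adjusted p was 0.372. Ruvbl2, an ATPase subunit of the exchange complexes, fell to 192 FPKM at E13.5f, against 469.7 FPKM at E11.5 (adjusted p of 0.0270 in the authors' deposited table). It was the 1 call of that list between stages, where 12 percent of all genes were called at E13.5f over E11.5. Among 9 chaperones of H2A and H2B, 2 fell in Tet1-KO, against the same 5.48 percent of all genes. Nap1l4 was at 244 FPKM in Tet1-KO and 517 FPKM in WT, and Ncl at 442 FPKM in Tet1-KO and 528 FPKM in WT, and neither kept its call relative to the median, where the Ncl difference was above 0 at 0.12 (adjusted p of 0.294 and 0.436 in the normal test). Among the kinases and readers of H2A.X, Rnf8, a ubiquitin ligase at DNA breaks, was the 1 of 11 that was called (5.48 percent of all genes were called lower), at 102 FPKM in Tet1-KO and 216 FPKM in WT, and it lost the call relative to the median, with 0.215. Of 6 further histone variants listed as tested, which include Cenpa and H2afj, 0 were called in Tet1-KO, against 6.16 percent of all genes. Among the 6, Hils1 was at 0 FPKM in both groups and so could not be called. Hist1h1t was at 0.372 FPKM in Tet1-KO and 0.191 FPKM in WT, and Hist1h2ba at 1.44 FPKM in Tet1-KO and 0.742 FPKM in WT. The CENP-A loading list of 6 genes had 0 calls in every comparison, where between 4.88 and 12 percent of all genes were called.

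**Figure D4:**
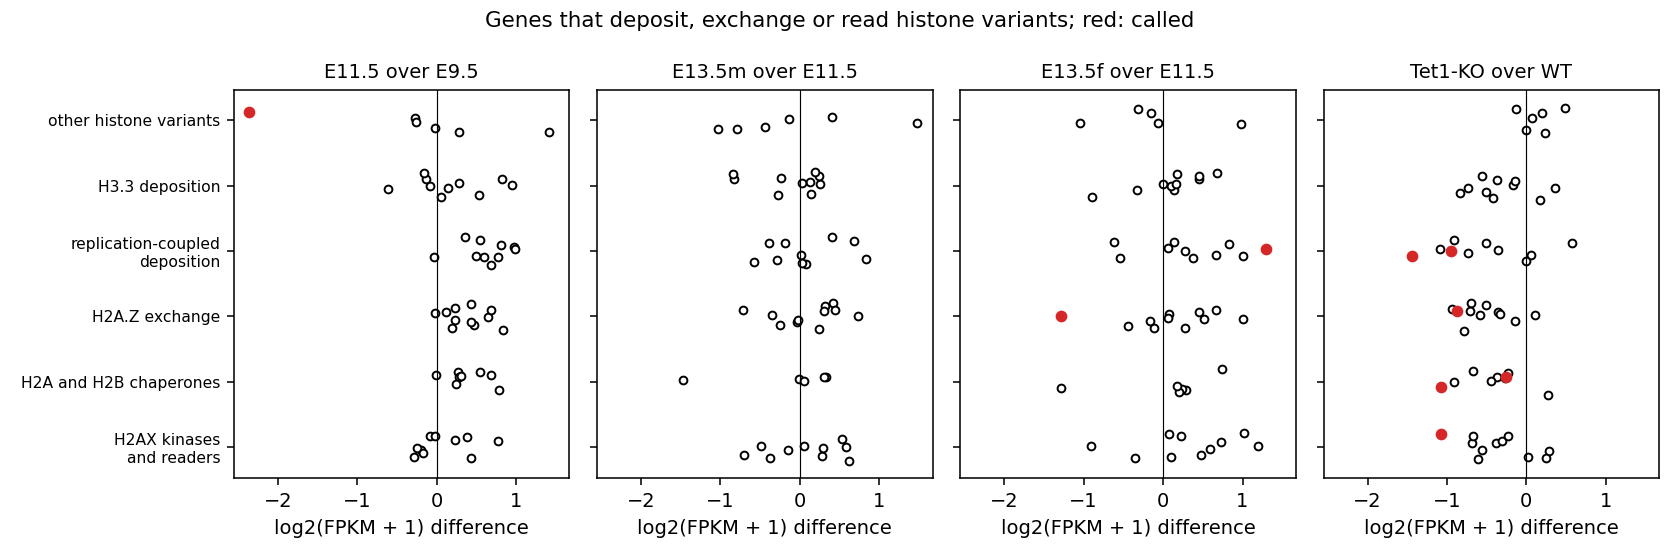
Difference in log2(FPKM + 1) of each tested gene of 6 lists in 4 comparisons; red points were called by the authors, open points were not, and the vertical scatter within a list only separates points. The 6 red points in Tet1-KO over WT all lie below 0, while H2afy2 is the 1 red point of E11.5 over E9.5, Rbbp4 is above 0 and Ruvbl2 below it in E13.5f over E11.5, and E13.5m over E11.5 has none.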

How the data were processed

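Germ cell RNA was amplified from few cells with a low-input kit (2 to 70 ng of cDNA) and sheared by sonication, per the labels' protocols. Per the submitters' processing notes, the tools were TopHat 1.3.1 with Bowtie, and Cufflinks with Cuffdiff, in version 1.2.1 for the stage libraries and 1.0.3 for Tet1-KO and WT, on mm9. Each of the 4 deposited tables holds 1 pooled FPKM value per group, per the file headers. The authors also deposited a p-value with its q-value (FDR in the knockout table). The stage tables add the test statistic, a score, per the file headers. The deposited FDR exceeds 1 in 2182 rows of the knockout table. Starts in the loci were read as counted from 0 and raised by 1.

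Log2 ratios were computed from the FPKM values, the SE as the ratio over the deposited statistic or, in the knockout table, over the two-sided normal deviate that matches the p-value in that table, where this was above 0.05. Calls are the authors'. Changes over lists are on the log2(FPKM + 1) scale, where the change of a low gene comes out too small. The common scale multiplies the E9.5 table by 0.870 and the E13.5m table by 0.976. The test relative to the median and the difference of ratios are normal two-sided tests, Benjamini-Hochberg adjusted over all genes with an SE. Both were run on simulated data with large changes and independent normal errors drawn from these same SEs. Such data cannot show how the tests handle wrong SEs, small changes or the shared E11.5 error. The members and lists were chosen with earlier results of these data known. The text names all members, up to 3 called genes of each list and the 3 closest patterns of members that vary by 1 or more, of which 1 gene is not reported here; list genes beyond these, the neighbours of H1fx and the 2 genes of like GC content were chosen after their values were seen. List genes were matched by symbol or synonym in RefSeq (GRCm38.p6, names only), transcript GC from GENCODE M21 for 89.3 percent of genes. Other settings tried were centring, a pseudocount of 0.1, a threshold of 0.01, a floor of 1 FPKM and a fresh adjustment of the p-values. The software was scipy 1.17.1, pandas 2.3.3 and numpy 2.4.6 under Python 3.11.15, with figures from matplotlib 3.10.9.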

Additional observations from a re-analysis of the deposited data

How the results depend on the processing

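The counts of members called kept their value under 18 of 19 alternatives; centring E11.5 over E9.5 on the median of all genes called 1 member, H1f0, where the authors called 0. The H1fx call in Tet1-KO held at a threshold of 0.01, with the adjustment computed again, at a minimum of 1 FPKM and after centring. A pseudocount of 0.1 changed the direction of none of the 29 member changes. Centring turned the direction of 6 changes, none of them called. These were H2afv at E13.5f over E11.5 (-0.15), and in Tet1-KO over WT H2afx (0.0172), H2afz (0.25), H2afv (0.0286), H3f3b (0.14) and H1f0 (0.17), all in log2(FPKM + 1). The counts of all genes called moved by over 1.5 times at the threshold of 0.01 in every table: 348 against 727 at E11.5 over E9.5, 699 against 1496 at E13.5f, 296 against 601 at E13.5m and 371 against 1010 in Tet1-KO. Centring called 497 in Tet1-KO; its split was 264 higher and 233 lower, where the authors' was 111 and 899. At E11.5 over E9.5 the centred split was 234 and 342, against 479 and 248, and at E13.5f it was 817 and 487, against 1163 and 333. The medians subtracted were 0.32, 0.19, 0.02 and -0.38. The adjusted test of E13.5m over E13.5f called 11 genes at 0.01, against 18. No paired analysis was possible because the deposited columns hold 1 pooled value per group, and for the same reason no replicate could be left out. With no value per library, a single library that sets the H1fx level in Tet1-KO could not be seen.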
